A study of Mus musculus with 12 samples.

Results

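The ribosome biogenesis genes described here are 50 genes whose proteins make, cut, modify or assemble ribosomal RNA (rRNA) into ribosomal subunits. They were taken by name from the array annotation, and a gene was read through the probe set with the highest mean over 12 arrays among those that name 1 gene. Such a probe set existed for 49 of the 50 genes, and all 49 passed the filter on dim probe sets, out of 9293 genes tested in the series. The member without one was Mrto4, which was read only by a probe set that names several genes, and it was not analysed here.

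Cells that start to grow need more ribosomes. In the nucleolus, RNA polymerase I (Pol I) transcribes one long rRNA precursor, small nucleolar ribonucleoproteins (snoRNPs) guide its chemical modification, and a large set of assembly factors cuts and folds it into a small and a large ribosomal subunit. Resting B cells are small and make little rRNA, and engagement of the B cell receptor starts their growth, in which the transcription factor Myc is known to raise many ribosome biogenesis genes.

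RNA was hybridised to 12 one-colour arrays in 4 groups of 3. The groups were Foxp1flox/del B cells with IgM, Foxp1flox/del B cells without it, Foxp1wt/flox B cells with IgM and Foxp1wt/flox B cells without it; Foxp1flox/del cells are called deleted cells and Foxp1wt/flox cells control cells here. Foxp1 encodes a forkhead transcription factor, flox stands for a conditional allele and del for a deleted one, so both genotypes carry a flox allele. All cells came from spleens of mice of mixed 129/Sv-C57BL/6 background, were sorted as B220+ B cells and spent 4 h in culture, with or without added IgM. No label states a Cre driver or how the flox allele was recombined, and the labels give neither the age of the mice nor whether replicates were separate animals or cultures. The p-values therefore measure the spread between these samples, which may be technical, and in bulk RNA fewer cells of a type and less RNA per cell cannot be told apart.

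Foxp1 had 8 probe sets. Their log2 differences, deleted minus control, spanned -0.30 to 0.32 with IgM and -0.29 to 0.13 without it, and their position within the gene is not given in the sources used here, so they do not check the genotype. Median log2 values of the 12 arrays were 2.45 to 2.49. One array, replicate 3 of deleted cells with IgM, stood apart. Its lowest correlation with an array of its group was 0.817, against 0.951 or more within the other groups, and its bacterial poly-A control RNAs averaged 6.94 on the log2 scale, against 8.05 to 10.73 on the other 11 arrays. The main counts of called genes and several single results are given with and without it. Other results, among them the counts of groups that do not overlap, are given only with it. The poly-A controls were lower with IgM in 6 of 6 same-numbered pairs of arrays and lower in deleted cells in 5 of 6, and their part in the results was not tested.

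Most ribosome biogenesis genes rose with IgM in both genotypes. In deleted cells 35 of the 49 genes rose with IgM and 0 fell, where 9.78% of all genes tested rose and 9.21% fell (limma, Benjamini-Hochberg adjusted p under 0.05 over all genes). The median log2 difference was 1.34, a 2.53-fold rise, beside -0.08 over all genes, and single genes ran from -0.15 to 3.16. In control cells 34 of the 49 rose and 0 fell, where 8.71% of all genes rose and 12% fell, with a median of 1.21, or 2.32-fold, beside -0.05 over all genes and a range of 0.38 to 1.94. The differences were positive for 48 of 49 genes in deleted cells and for 49 of 49 in control cells. Without the array that stood apart, 45 genes rose in deleted cells and 47 in control cells, where 12.9% and 16.6% of all genes rose. With the replicate number as a block in the fit, which takes out what same-numbered arrays share, 39 rose in deleted and 43 in control cells, where 17.3% and 15.5% of all genes rose.

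The same genes rose in both genotypes for 30 of the 39 called in either. The share of all genes tested that passed in both is not given here, with or without the block. The overlap is therefore not shown to be particular to these genes. Nolc1, Ncl, Mybbp1a, Nop14 and Tsr1 passed in deleted cells alone, and Rrp9, Pno1, Nop16 and Ebna1bp2 in control cells alone; the difference between the genotypes passed for none of them in the interaction test given below. The 10 genes that passed in neither were Bms1, Fbl, Gar1, Imp4, Nhp2, Nip7, Nop10, Npm1, Polr1c and Wdr74. With the block, 38 genes passed in both genotypes, Bms1 in deleted cells alone, and Nhp2, Imp4, Nop16, Ebna1bp2 and Wdr74 in control cells alone. The 5 that then passed in neither were Polr1c, Fbl, Nop10, Gar1 and Nip7. In deleted cells all 3 IgM arrays lay above all 3 arrays without IgM for 37 genes, where 16.6% of all genes did so. In control cells this held for 48 genes, every one but Bms1, where 21.0% of all genes did so. The summed linear signal of 7 pan-B genes was 32288 to 37822 in deleted cells with IgM and 67332 to 71107 without, and 27964 to 31933 in control cells with IgM and 71236 to 74833 without. Of these genes Cd79b and Pax5 fell with IgM in both genotypes and Cd22 in control cells alone, and the others did not pass. Over all genes 9.21% fell in deleted and 12% in control cells. The part of the pan-B sum in the rise of the ribosome biogenesis genes was not tested.

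**Figure D1:**
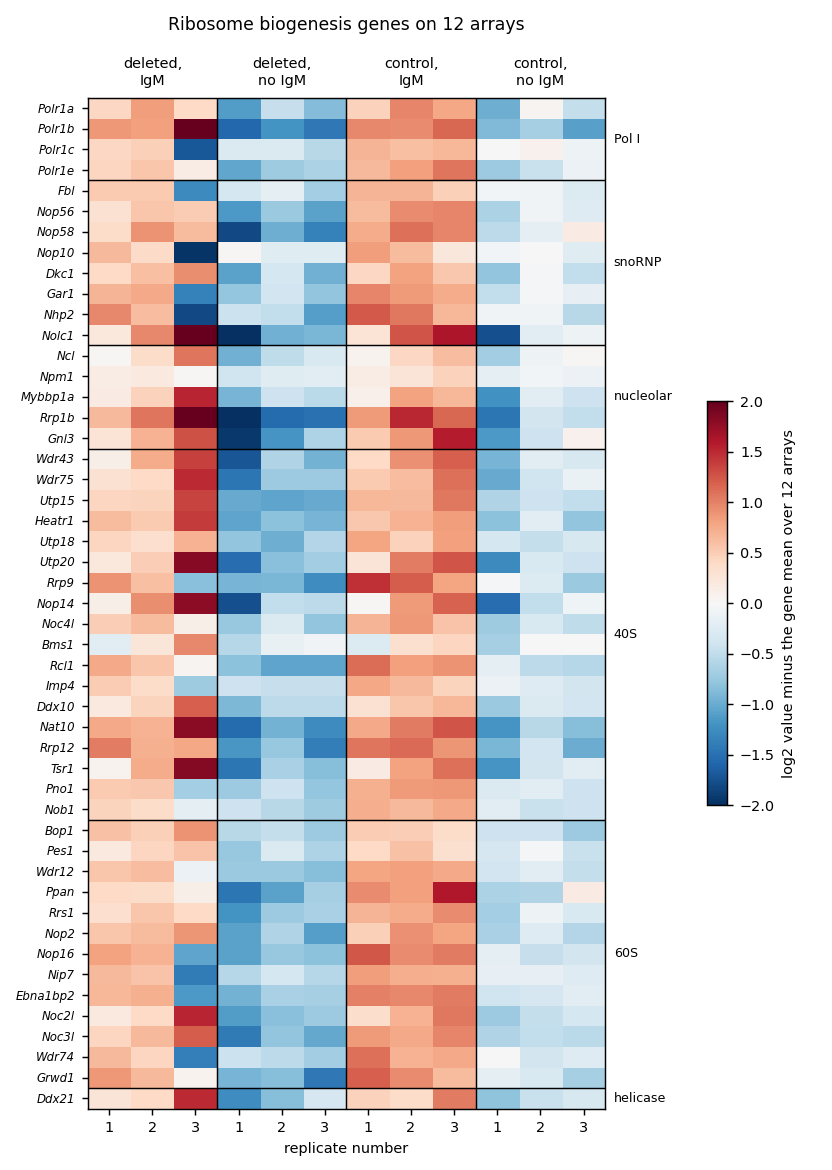
Each row is 1 of the 49 genes, ordered by role, and each column 1 array; the colour gives the log2 value minus the mean of that gene over 12 arrays, and is capped at 2 in either direction. Arrays with IgM are red and those without are blue in most rows, and replicate 3 of deleted cells with IgM departs from its group mates in both directions.

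Of the 4 Pol I subunits, 3 rose in each genotype. Polr1b, which encodes the second-largest subunit, read 9.70, 9.66 and 10.92 in replicates 1, 2 and 3 of deleted cells with IgM, against 7.28, 7.65 and 7.42 in deleted cells without it. In control cells Polr1b read 9.79, 9.78 and 9.98 with IgM, against 7.95, 8.17 and 7.75 without it. The groups with and without IgM did not overlap in either genotype, and the highest value was that of the array that stood apart. The rise was 2.65 ± 0.31 on the log2 scale, or 6.27-fold, in deleted cells (SE, n = 3 per group, limma adjusted p = 0.000396) and 1.89 ± 0.31, or 3.72-fold, in control cells (limma adjusted p = 0.00188). With the replicate number as a block and without that array, the rise of Polr1b in deleted cells was 2.22.

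Polr1a encodes the largest, catalytic subunit of Pol I. It read 9.33, 9.76 and 9.32 in deleted cells with IgM, against 7.79, 8.45 and 8.04 without it, and 9.38, 9.89 and 9.70 in control cells with IgM, against 7.94, 8.97 and 8.44 without it. No IgM array overlapped an array without IgM, and the rises were 1.37 ± 0.29 in deleted cells (limma adjusted p = 0.00826) and 1.21 ± 0.29 in control cells (limma adjusted p = 0.0138). Polr1e, a further Pol I subunit, rose by 1.16 ± 0.22 in deleted cells and by 1.28 ± 0.22 in control cells. Polr1c, which Pol I shares with RNA polymerase III, did not pass in either genotype, at 0.11 ± 0.46 in deleted cells and 0.66 ± 0.46 in control cells.

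The snoRNP proteins come in a box C/D class, which guides methylation of rRNA, and a box H/ACA class, which guides conversion of uridine to pseudouridine. Of 8 such genes, 4 rose in deleted cells and 3 in control cells. Nop58, a core protein of box C/D snoRNPs, read 11.52, 12.05 and 11.79 in deleted cells with IgM, against 9.35, 10.18 and 9.81 without it. In control cells Nop58 read 11.90, 12.26 and 12.13 with IgM, against 10.63, 10.96 and 11.31 without it. Each IgM value exceeded every value without IgM, and the lowest values of the gene were those of deleted cells without IgM. Nop58 rose by 2.01 ± 0.27 in deleted cells (4.03-fold, limma adjusted p = 0.000669) and by 1.13 ± 0.27 in control cells (2.18-fold, limma adjusted p = 0.0126).

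Its box C/D partner Nop56 read 12.16, 12.40 and 12.35 in deleted cells with IgM, against 10.70, 11.10 and 10.77 without it. In control cells Nop56 read 12.48, 12.80 and 12.82 with IgM, against 11.21, 11.77 and 11.58 without it. Arrays with and without IgM did not overlap, and Nop56 rose by 1.44 ± 0.21 in deleted cells (limma adjusted p = 0.00115) and by 1.18 ± 0.21 in control cells (limma adjusted p = 0.00289). Fbl encodes fibrillarin, the methyltransferase of the same particle. It read 13.15, 13.16 and 11.36 in deleted cells with IgM, against 12.28, 12.45 and 11.96 without it, and 13.32, 13.31 and 13.11 in control cells with IgM, against 12.58, 12.57 and 12.36 without it. In deleted cells the array that stood apart was the lowest of all 12, and the difference of 0.33 ± 0.41 did not pass; nor did that of 0.75 ± 0.41 in control cells, whose groups did not overlap. With the block and without that array, Fbl rose by 0.84 in deleted cells (limma adjusted p = 0.000215) and by 0.75 in control cells (limma adjusted p = 0.000117).

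Dkc1 encodes dyskerin, the pseudouridine synthase of box H/ACA snoRNPs. It read 12.79, 13.00 and 13.33 in deleted cells with IgM, against 11.32, 12.05 and 11.43 without it, and 12.81, 13.20 and 12.94 in control cells with IgM, against 11.60, 12.37 and 11.90 without it. The groups with and without IgM were apart in both genotypes, and Dkc1 rose by 1.44 ± 0.27 in deleted cells (limma adjusted p = 0.00472) and by 1.02 ± 0.27 in control cells (limma adjusted p = 0.0218). The other core proteins of this class, Nop10, Gar1 and Nhp2, passed in neither genotype, and with the block Nhp2 passed in control cells (limma adjusted p = 0.0473). Nhp2, shown because it was the lowest on the array that stood apart relative to its group mates, and so chosen after its values were seen, read 13.27, 12.93 and 10.51 in deleted cells with IgM, against 11.89, 11.82 and 11.21 without it. In control cells Nhp2 read 13.53, 13.37 and 12.97 with IgM, against 12.24, 12.23 and 11.75 without it. Its control groups did not overlap, whereas in deleted cells 2 IgM arrays were the highest and the third was the lowest.

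Nolc1 encodes a nucleolar chaperone of snoRNPs. It read 10.55, 11.31 and 12.34 in deleted cells with IgM, against 8.0, 9.38 and 9.44 without it, and 10.62, 11.61 and 11.96 in control cells with IgM, against 8.59, 10.14 and 10.24 without it. Replicate 1 was the lowest array in each of the 4 groups. Nolc1 rose by 2.46 ± 0.61 in deleted cells (limma adjusted p = 0.0169), while the difference of 1.74 ± 0.61 in control cells did not pass (limma adjusted p = 0.0675). With the block it passed in both (limma adjusted p = 8.35e-05 in deleted and 0.000293 in control cells).

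Of 5 nucleolar proteins of rRNA synthesis and nucleolar organisation, 4 rose in deleted cells and 2 in control cells. Rrp1b, a nucleolar protein related to yeast Rrp1, had the largest difference of all 49 genes in both genotypes by the probe sets used. It read 10.03, 10.46 and 11.81 in deleted cells with IgM, against 7.07, 7.85 and 7.90 without it. In control cells Rrp1b read 10.24, 10.89 and 10.53 with IgM, against 7.94, 9.02 and 8.89 without it. No IgM array fell among those without IgM, and the rise was 3.16 ± 0.46, or 8.92-fold, in deleted cells (limma adjusted p = 0.00111) and 1.94 ± 0.46, or 3.83-fold, in control cells (limma adjusted p = 0.0127). Without the array that stood apart and with the block, the rise of Rrp1b in deleted cells was 2.72. With all arrays, the further probe sets of Rrp1b rose by 2.72 and 2.65 in deleted cells and by 2.13 and 2.14 in control cells.

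Gnl3 encodes nucleostemin, a nucleolar GTP-binding protein. It read 11.94, 12.36 and 12.94 in deleted cells with IgM, against 9.75, 10.49 and 11.05 without it, and 12.19, 12.54 and 13.24 in control cells with IgM, against 10.52, 11.26 and 11.76 without it. Within each genotype the IgM arrays were all above the others, and replicate 1 was the lowest in every group. Gnl3 rose by 1.99 ± 0.44 in deleted cells (limma adjusted p = 0.00974) and by 1.48 ± 0.44 in control cells (limma adjusted p = 0.0343).

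Nucleolin (Ncl) and nucleophosmin (Npm1) are abundant nucleolar proteins that bind rRNA precursors and assembling particles. Ncl read 14.02, 14.37 and 15.06 in deleted cells with IgM, against 13.03, 13.49 and 13.69 without it, and 14.06, 14.41 and 14.61 in control cells with IgM, against 13.30, 13.90 and 14.03 without it. It rose by 1.08 ± 0.32 in deleted cells (limma adjusted p = 0.0361), and its 0.62 ± 0.32 in control cells did not pass (limma adjusted p = 0.209) but did with the block (limma adjusted p = 0.0139). Without the array that stood apart and with no block, Ncl did not pass in deleted cells, at 0.79 (limma adjusted p = 0.068). With all arrays, the further probe sets of Ncl rose by 1.02 to 1.79 in deleted cells and by 0.76 to 1.60 in control cells. Npm1 read 14.43, 14.49 and 14.31 in deleted cells with IgM, against 13.90, 14.04 and 14.06 without it, and 14.45, 14.56 and 14.76 in control cells with IgM, against 14.10, 14.24 and 14.17 without it. The Npm1 groups with and without IgM did not overlap, but its differences of 0.41 ± 0.17 in deleted and 0.42 ± 0.17 in control cells did not pass (limma adjusted p = 0.118 in deleted and 0.113 in control cells). They passed with the block (limma adjusted p = 0.0477 in deleted and 0.0462 in control cells) and with no block but without the array that stood apart (limma adjusted p = 0.0384 in deleted and 0.0286 in control cells).

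**Figure D2:**
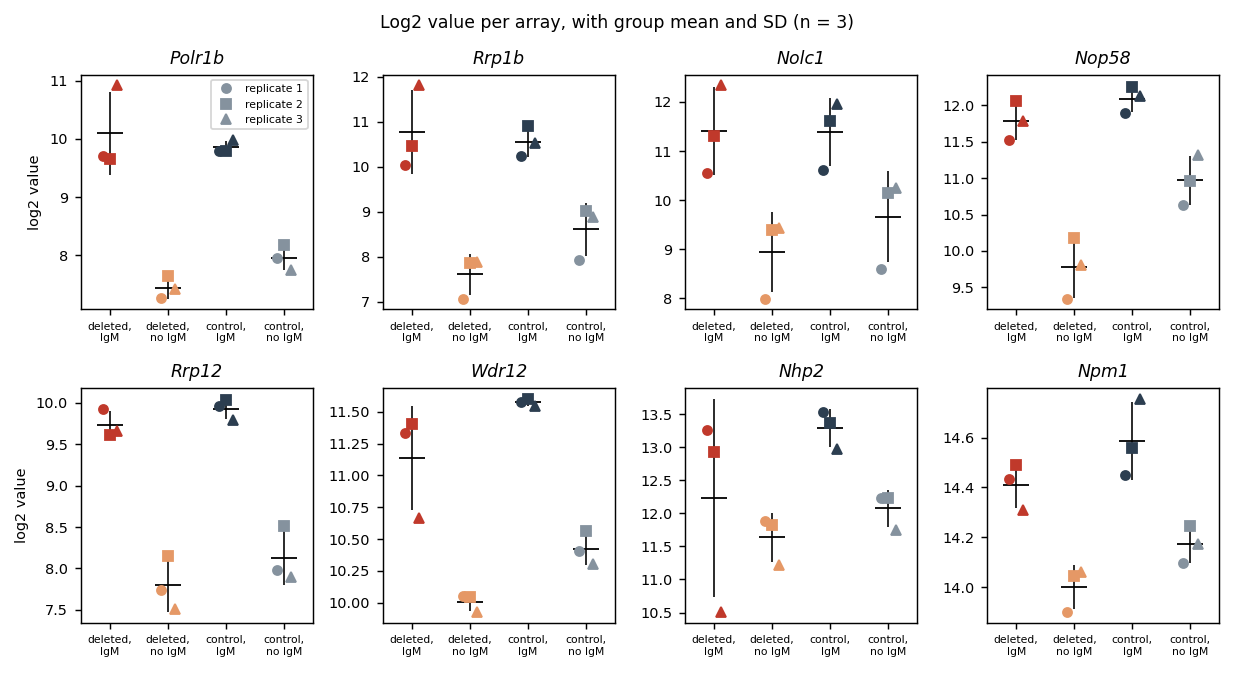
Points are log2 values of single arrays, with the replicate number as the marker shape, and the bar and whisker are the mean and SD of 3 arrays; each panel has its own axis. Polr1b, Rrp1b, Nolc1, Nop58, Rrp12, Wdr12 and Npm1 have no overlap between IgM and no IgM within a genotype. Replicate 3 of deleted cells with IgM is high for Rrp1b and low for Nhp2 and Wdr12.

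Among 18 genes of the small subunit processome and of later small subunit maturation, 14 rose in each genotype. Rrp12, a factor of ribosomal subunit export and maturation known best in yeast, read 9.92, 9.61 and 9.66 in deleted cells with IgM, against 7.73, 8.15 and 7.51 without it. In control cells Rrp12 read 9.96, 10.03 and 9.79 with IgM, against 7.98, 8.52 and 7.90 without it. The arrays with IgM were close together and apart from those without, and Rrp12 rose by 1.93 ± 0.23 in deleted cells (3.82-fold, limma adjusted p = 0.000446) and by 1.80 ± 0.23 in control cells (3.47-fold, limma adjusted p = 0.000505). Nat10, an RNA acetyltransferase of small subunit rRNA, read 9.12, 9.06 and 10.17 in deleted cells with IgM, against 6.82, 7.41 and 7.11 without it. In control cells Nat10 read 9.13, 9.40 and 9.61 with IgM, against 7.19, 7.81 and 7.51 without it. Nat10 groups with and without IgM were apart in both genotypes, and the rises were 2.34 ± 0.32 in deleted cells (limma adjusted p = 0.000777) and 1.87 ± 0.32 in control cells (limma adjusted p = 0.00216).

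Utp15 encodes a processome subunit that acts early, on the nascent precursor. It read 10.59, 10.61 and 11.52 in deleted cells with IgM, against 9.15, 9.10 and 9.16 without it, and 10.83, 10.81 and 11.23 in control cells with IgM, against 9.57, 9.75 and 9.68 without it. Its arrays without IgM differed by at most a few hundredths of a log2 unit in deleted cells, and Utp15 rose by 1.77 ± 0.26 in deleted cells (limma adjusted p = 0.00107) and by 1.29 ± 0.26 in control cells (limma adjusted p = 0.00507). Nop14, another processome protein, read 9.81, 10.61 and 11.49 in deleted cells with IgM, against 7.94, 9.20 and 9.16 without it. In control cells Nop14 read 9.71, 10.54 and 10.87 with IgM, against 8.16, 9.20 and 9.60 without it. Replicate 1 was the lowest in every group, and Nop14 rose by 1.87 ± 0.53 in deleted cells (limma adjusted p = 0.0327), while its 1.38 ± 0.53 in control cells did not pass (limma adjusted p = 0.0957) but did with the block (limma adjusted p = 0.000476). Without the array that stood apart and with no block, the limma adjusted p of Nop14 was 0.081 in deleted and 0.0492 in control cells.

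Rrp9 encodes a protein of the U3 snoRNP, which base-pairs with the rRNA precursor. It read 9.63, 9.34 and 7.90 in deleted cells with IgM, against 7.79, 7.82 and 7.49 without it, and 10.20, 9.93 and 9.51 in control cells with IgM, against 8.69, 8.46 and 7.99 without it. Rrp9 rose by 1.50 ± 0.40 in control cells (limma adjusted p = 0.023), and its 1.25 ± 0.40 in deleted cells did not pass (limma adjusted p = 0.053) but did with the block (limma adjusted p = 0.00489). Nob1, the endonuclease that makes the last cut of small subunit rRNA, read 9.93, 9.86 and 9.31 in deleted cells with IgM, against 9.08, 8.93 and 8.78 without it, and 10.22, 10.15 and 10.25 in control cells with IgM, against 9.28, 9.05 and 9.07 without it. Nob1 rose by 0.77 ± 0.21 in deleted cells (limma adjusted p = 0.0238) and by 1.07 ± 0.21 in control cells (limma adjusted p = 0.00413). Its partner Pno1 read 11.40, 11.42 and 10.19 in deleted cells with IgM, against 10.16, 10.47 and 10.11 without it, and 11.60, 11.73 and 11.75 in control cells with IgM, against 10.59, 10.66 and 10.47 without it. Pno1 rose by 1.12 ± 0.30 in control cells (limma adjusted p = 0.0226), while its groups overlapped in deleted cells at 0.76 ± 0.30 (limma adjusted p = 0.105, and 0.0448 with the block).

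Of 13 genes of large subunit assembly, 9 rose in deleted cells and 11 in control cells. Bop1, Pes1 and Wdr12 encode the PeBoW complex, which acts in processing of large subunit rRNA, and all 3 rose in both genotypes. Bop1 read 10.94, 10.83 and 11.26 in deleted cells with IgM, against 9.79, 9.88 and 9.63 without it, and 10.87, 10.84 and 10.72 in control cells with IgM, against 9.94, 9.94 and 9.63 without it. Pes1 read 11.17, 11.40 and 11.54 in deleted cells with IgM, against 10.22, 10.68 and 10.35 without it, and 11.36, 11.56 and 11.29 in control cells with IgM, against 10.64, 10.93 and 10.52 without it. For both genes every IgM array lay above every array without IgM of its genotype. Wdr12 read 11.34, 11.41 and 10.67 in deleted cells with IgM, against 10.05, 10.05 and 9.93 without it, and 11.58, 11.61 and 11.55 in control cells with IgM, against 10.40, 10.56 and 10.30 without it. Wdr12 rose by 1.13 ± 0.21 in deleted cells (limma adjusted p = 0.00483) and by 1.15 ± 0.21 in control cells (limma adjusted p = 0.00351). The rises of Bop1 were 1.24 ± 0.19 in deleted and 0.97 ± 0.19 in control cells, and those of Pes1 were 0.96 ± 0.20 in deleted and 0.71 ± 0.20 in control cells.

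Ppan, whose yeast counterpart acts in large subunit assembly, read 10.20, 10.17 and 9.91 in deleted cells with IgM, against 8.35, 8.72 and 9.13 without it. In control cells Ppan read 10.74, 10.62 and 11.40 with IgM, against 9.16, 9.20 and 9.96 without it. Within each genotype the values with IgM were all above those without, and Ppan rose by 1.36 ± 0.30 in deleted cells (limma adjusted p = 0.0102) and by 1.48 ± 0.30 in control cells (limma adjusted p = 0.00575). The helicase Ddx21, which binds Pol I and RNA polymerase II transcripts, read 11.65, 11.80 and 12.89 in deleted cells with IgM, against 10.16, 10.54 and 11.05 without it. In control cells Ddx21 read 11.86, 11.76 and 12.44 with IgM, against 10.59, 10.95 and 11.07 without it. Its groups were apart, and Ddx21 rose by 1.53 ± 0.36 in deleted cells (limma adjusted p = 0.0132) and by 1.15 ± 0.36 in control cells (limma adjusted p = 0.0437).

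Further probe sets of the same genes gave a second reading that did not choose the values above, but of the same RNA on the same arrays. Those that passed the filter on dim probe sets numbered 44, in 32 of the 49 genes, and those that failed it were not read. High values on arrays with IgM alone can be enough to pass that filter. All 44 had the same sign of the IgM difference as the probe set used, in deleted and in control cells. Their sizes differed from those of the set used, in both directions. A further set of Nop16 rose by 2.23 in deleted and 2.30 in control cells, against 1.03 and 1.41 for the set used. In deleted cells a further set rose by 1.54 for Nip7, against 0.44, and by 0.59 for Bop1, against 1.24. The calls above rest on the set used.

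The array that stood apart was low for a group of short genes. For 10 genes its value lay below that of replicate 3 of deleted cells without IgM: Polr1c, Fbl, Nop10, Gar1, Nhp2, Imp4, Nop16, Nip7, Ebna1bp2 and Wdr74. Within pairs 1 and 2 all 49 genes were higher with IgM in deleted cells, and within pair 3 it was 39. The 10 genes are short, with a median genomic span of 5368.5 bp beside 16148 bp for the other 39. The pattern was not particular to these genes. In the other groups the shortest class of all genes tested deviated from group mates by 0.24 to 0.28 on replicate 1 and by -0.21 to -0.30 on replicate 3. On the array that stood apart the median deviation was -1.29 for the shortest class of all genes tested and 0.81 for the longest. Over the 49 genes, the value on this array minus the mean of its group mates had a Spearman rho of 0.59 with genomic span; the points share 1 array, and the value describes that array. When it was left out and the replicate number was a block, all 49 genes rose with IgM in each genotype, where 24.3% of all genes rose in deleted cells and 29.5% in control cells.

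**Figure D3:**
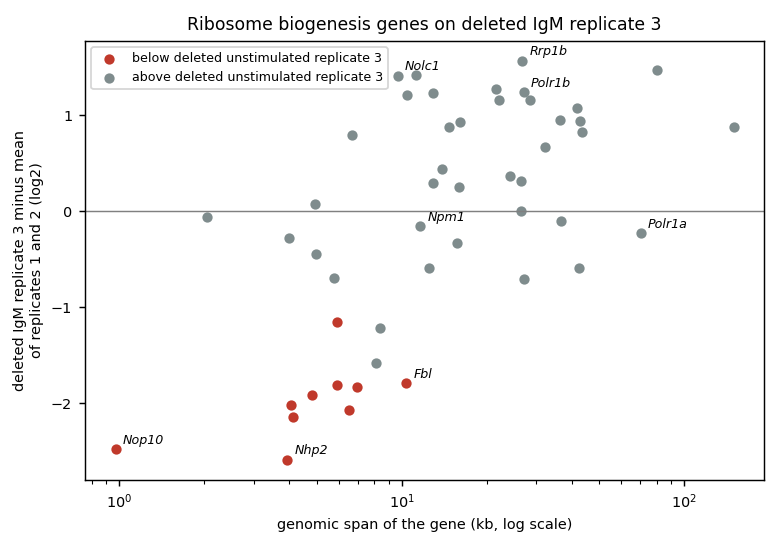
The y axis is the log2 value of replicate 3 of deleted cells with IgM minus the mean of replicates 1 and 2 of that group, and the x axis is genomic span in kb on a log scale, for 49 genes. The 10 red genes lie below replicate 3 of deleted cells without IgM, and they sit at the short end and the low end of the plot.

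Promoter windows were read for 44 of the 49 genes from RefSeq (GRCm38.p6, 250 bases before to 50 after the annotated start). The windows were searched on both strands for CACGTG, the E-box that Myc binds best, and for CCGGAAG, a core of sites of Ets factors; the pair of motifs cannot overlap. CACGTG was found in 10 of 44 windows, or 22.7%, beside 11% of the 7653 windows of tested genes and 7.24% of all 27025 windows. CCGGAAG was found in 18 of 44, or 40.9%, beside 21.3% of the windows of tested genes and 9.12% of all windows. Median GC content was 58% in the 44 windows and 61.0% in those of tested genes. The IgM difference had a median of 1.47 in deleted cells and 1.18 in control cells for the 10 genes with CACGTG, of which 8 rose in deleted and 7 in control cells. It had a median of 1.37 in deleted cells and 1.22 in control cells for the 34 without it, of which 24 rose in each. For CCGGAAG these medians were 1.26 in deleted and 1.22 in control cells for the 18 genes with it, of which 11 rose in deleted and 10 in control cells. They were 1.44 in deleted and 1.21 in control cells for the 26 without it, of which 21 rose in each. Over all genes tested 9.78% rose in deleted and 8.71% in control cells. The windows of Polr1b, Nop58, Rrp1b, Nat10 and Rrp9, whose values are given above, hold neither motif. Those of Rrp1b, Nat10 and Rrp9 are not printed. That of Utp20, a processome protein that rose in both genotypes, holds CACGTG. Nop2, an rRNA methyltransferase of the large subunit, and Grwd1, a chaperone of a large subunit protein, hold both motifs and were chosen for that after their values were seen. Tsr1 and Utp18 also hold both motifs and are not printed. The sequences run 5′ to 3′ on the strand of the gene, and capitals mark a motif. They lie at chr2:129100746-129101045 on the plus strand for Polr1b, chr1:59684756-59685055 on the plus strand for Nop58, chr10:88826765-88827064 on the minus strand for Utp20, chr6:125131633-125131932 on the plus strand for Nop2 and chr7:45830740-45831039 on the minus strand for Grwd1.
Polr1b: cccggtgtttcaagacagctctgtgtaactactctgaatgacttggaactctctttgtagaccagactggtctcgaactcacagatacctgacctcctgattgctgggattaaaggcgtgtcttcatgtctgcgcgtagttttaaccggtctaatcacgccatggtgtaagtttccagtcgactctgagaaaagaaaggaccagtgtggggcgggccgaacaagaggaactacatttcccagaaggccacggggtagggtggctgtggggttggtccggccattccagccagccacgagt
Nop58: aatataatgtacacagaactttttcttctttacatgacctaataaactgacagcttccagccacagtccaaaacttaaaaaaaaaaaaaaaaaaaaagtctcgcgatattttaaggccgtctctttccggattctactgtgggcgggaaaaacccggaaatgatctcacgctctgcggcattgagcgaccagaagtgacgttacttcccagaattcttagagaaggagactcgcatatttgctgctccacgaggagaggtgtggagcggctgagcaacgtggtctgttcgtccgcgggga
Utp20: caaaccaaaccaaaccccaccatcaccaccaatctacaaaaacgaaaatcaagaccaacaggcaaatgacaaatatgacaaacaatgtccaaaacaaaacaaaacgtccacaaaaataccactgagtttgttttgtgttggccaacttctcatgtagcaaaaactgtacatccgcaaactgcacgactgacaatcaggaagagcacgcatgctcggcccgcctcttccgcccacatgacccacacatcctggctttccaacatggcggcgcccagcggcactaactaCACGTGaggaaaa
Nop2: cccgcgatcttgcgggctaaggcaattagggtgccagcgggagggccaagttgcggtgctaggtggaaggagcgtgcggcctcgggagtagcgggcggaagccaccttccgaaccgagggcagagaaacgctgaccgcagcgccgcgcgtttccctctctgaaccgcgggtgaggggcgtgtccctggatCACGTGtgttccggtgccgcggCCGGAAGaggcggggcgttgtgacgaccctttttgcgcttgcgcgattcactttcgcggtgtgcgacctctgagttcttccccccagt
Grwd1: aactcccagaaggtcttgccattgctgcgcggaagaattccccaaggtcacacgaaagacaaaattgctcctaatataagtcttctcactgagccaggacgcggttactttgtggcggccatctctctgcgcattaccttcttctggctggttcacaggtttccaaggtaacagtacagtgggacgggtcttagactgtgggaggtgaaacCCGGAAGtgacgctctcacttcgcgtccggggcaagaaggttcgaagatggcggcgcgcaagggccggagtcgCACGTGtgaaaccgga

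A motif is a run of letters and was not tested for binding. Nop2 rose with IgM by 1.62 ± 0.22 in deleted cells (limma adjusted p = 0.000714) and by 1.22 ± 0.22 in control cells (limma adjusted p = 0.00271). Grwd1 rose by 1.60 ± 0.27 in deleted cells (limma adjusted p = 0.00263) and by 1.31 ± 0.27 in control cells (limma adjusted p = 0.0063). Utp20 rose by 1.86 ± 0.45 in deleted cells (limma adjusted p = 0.0161) and by 1.51 ± 0.45 in control cells (limma adjusted p = 0.037).

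Without IgM, all 49 genes had a lower mean in deleted than in control cells, and Nop58 alone fell past the threshold and 0 rose, where 0.818% of all genes fell and 2.03% rose. The median log2 difference was -0.38, or 0.771-fold, beside 0.00 over all genes, of which 49.5% were lower. Differences ran from -1.19 for Nop58 to -0.01 for Mybbp1a. At an unadjusted p under 0.05 there were 7 genes, Nop56, Nop58, Rcl1, Ppan, Rrs1, Noc3l and Grwd1, or 14.3% of the 49 beside 10.6% of all genes. All 3 deleted arrays lay below all 3 control arrays for 20 genes, where 8.55% of all genes did so, and 8 of these were among the 13 large subunit genes. Within same-numbered pairs 45 genes were lower in deleted cells in all 3, against 26.8% of all genes, and the exceptions were Nop10, Mybbp1a, Noc4l and Bms1.

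Nop58 without IgM read 9.35, 10.18 and 9.81 in replicates 1, 2 and 3 of deleted cells, against 10.63, 10.96 and 11.31 in control cells. The highest deleted value lay below the lowest control value. The group means were 9.78 ± 0.42 in deleted cells and 10.97 ± 0.34 in control cells (SD, n = 3), and Nop58 fell by 1.19 ± 0.27 on the log2 scale (SE, limma adjusted p = 0.0399), to 0.438 of the control level. Among 25 other settings of the fit the call held in 10 and was lost in 15, with limma adjusted p between 0.000808 and 0.356 and a difference between -1.40 and -0.98. Nop58 was read by 1 probe set.

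Rrp1b had a difference nearly as large, with 7.07, 7.85 and 7.90 in deleted cells without IgM, against 7.94, 9.02 and 8.89 in control cells. The groups did not overlap, but the difference of -1.01 ± 0.46 did not pass (limma adjusted p = 0.483). Grwd1 read 9.46, 9.53 and 8.95 in deleted cells without IgM, against 10.20, 10.07 and 9.71 in control cells, a difference of -0.68 ± 0.27 (limma adjusted p = 0.348). Gnl3, at 9.75, 10.49 and 11.05 in deleted and 10.52, 11.26 and 11.76 in control cells without IgM, overlapped between groups but was lower in deleted cells in each pair, at -0.75 ± 0.44 (limma adjusted p = 0.733). With the replicate number as a block, 4 genes fell, where 2.38% of all genes fell. They were Nop58 (limma adjusted p = 0.00365), Gnl3 (0.0141), Grwd1 (0.02) and Nop56 (0.0251).

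With the block and without the array that stood apart, which is no array of this comparison but adds to the shared spread, 29 of the 49 genes fell, where 10.0% of all genes fell. This setting was chosen after the data were seen. The 29 included the Pol I subunits Polr1b, Polr1c and Polr1e, the box C/D proteins Nop56 and Nop58, Nolc1, Rrp1b and Gnl3, with limma adjusted p from 0.000808 for Nop58 to 0.0491 for Pes1. Without that array and with no block, 1 gene fell, where 2.09% of all genes fell, and 20 had an unadjusted p under 0.05, or 40.8% beside 16.5% of all genes.

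**Figure D4:**
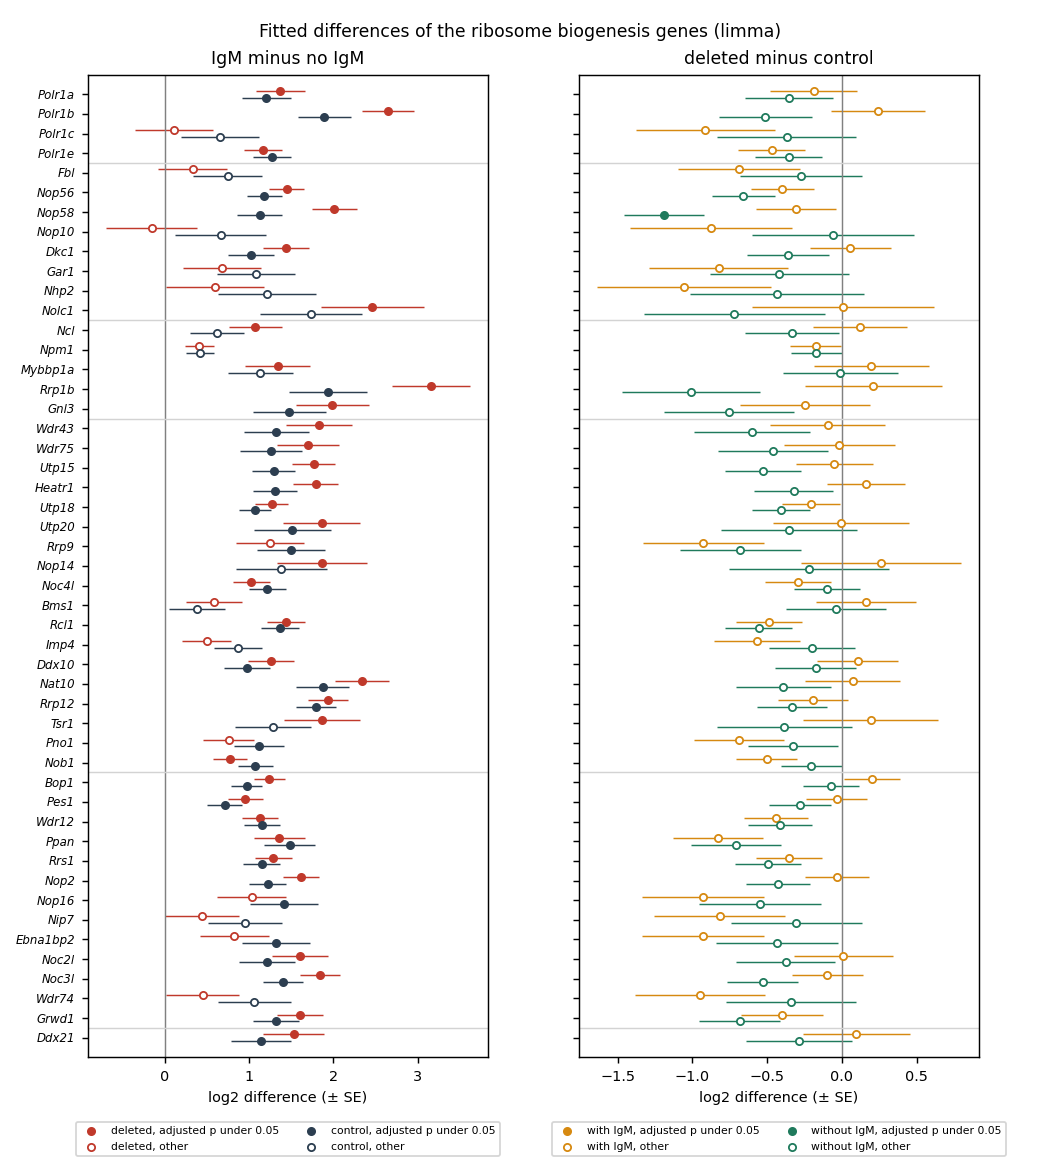
Points are log2 differences fitted by limma with their SE for 49 genes, IgM minus no IgM on the left and deleted minus control on the right; filled points have an adjusted p under 0.05. On the left nearly all points lie right of 0, and on the right all differences without IgM lie left of 0 with Nop58 the one filled point.

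With IgM, 0 of the 49 genes passed between deleted and control cells in either direction, where 1.59% of all genes rose and 0.129% fell by limma. At an unadjusted p under 0.05 there were 7 genes, or 14.3%, beside 13.7% of all genes. With the block 0 passed, where 5.66% of all genes rose and 1.10% fell, and 14 had an unadjusted p under 0.05, or 28.6% beside 26.2% of all genes. The means were lower in deleted cells for 34 genes and higher for 15, with a median difference of -0.19 beside 0.08 over all genes. All 3 deleted arrays lay below all 3 control arrays for 13 genes, where 5.55% of all genes did so, and 27 genes were lower in deleted cells in all 3 pairs, against 21.4% of all genes. The smallest p-values were those of Ppan, Nob1, Rrp9 and Pno1. Ppan with IgM read 10.20, 10.17 and 9.91 in deleted cells, against 10.74, 10.62 and 11.40 in control cells, at -0.83 ± 0.30 (limma adjusted p = 0.248). Rrp9 with IgM read 9.63, 9.34 and 7.90 in deleted cells, against 10.20, 9.93 and 9.51 in control cells, at -0.93 ± 0.40 (limma adjusted p = 0.344). The Ppan groups did not overlap, and the Rrp9 groups overlapped in that 1 deleted array exceeded the lowest control array. Nob1 was at -0.50 ± 0.21 (limma adjusted p = 0.305) and Pno1 at -0.69 ± 0.30 (limma adjusted p = 0.344), both with groups that did not overlap.

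The array that stood apart is one of the 3 deleted arrays of this comparison. Without it and with the block, 47 of the 49 genes were lower in deleted cells with IgM, the median was -0.24, and Rrp9, Ppan and Rcl1 fell, where 3.43% of all genes fell. Their differences were then -0.56 for Rrp9 (limma adjusted p = 0.0161), -0.51 for Ppan (limma adjusted p = 0.0333) and -0.34 for Rcl1 (limma adjusted p = 0.0419). Within pairs the median over the 49 genes was -0.20 and -0.21 in replicates 1 and 2 and -0.30 in replicate 3, where 27 genes were lower and 22 higher. Without IgM the pair medians were -0.39, -0.36 and -0.41, with 46, 48 and 49 genes lower in deleted cells.

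**Figure D5:**
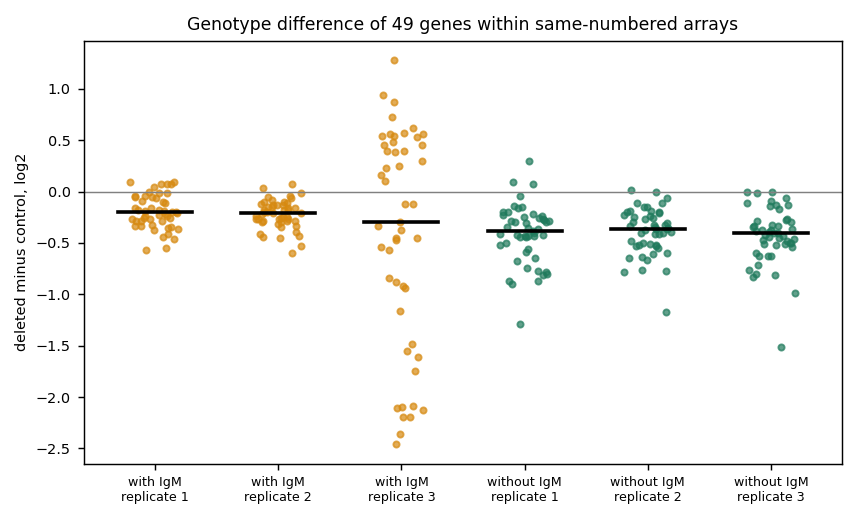
Each point is 1 of 49 genes, the y axis is the log2 value in deleted cells minus that in control cells within a same-numbered pair of arrays, and the line is the median. The medians lie between -0.41 and -0.20 in all 6 pairs, and replicate 3 with IgM has by far the widest spread.

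The interaction asked whether the IgM difference was larger in deleted than in control cells. It passed for 0 of the 49 genes by limma, where 0% of all genes passed higher and 0.108% lower, and 1 gene had an unadjusted p under 0.05, or 2.04% beside 3.82% of all genes. That gene was Nop58, whose IgM difference was larger in deleted cells by 0.89 ± 0.38 (limma adjusted p = 0.951). The next smallest p-values were those of Rrp1b, at 1.22 ± 0.65, Polr1b, at 0.75 ± 0.44, and Utp15, at 0.48 ± 0.36, each with a limma adjusted p of 0.951. By the further probe sets of Rrp1b, given above, its rises in deleted and control cells lay closer together. With the block 0 passed as well, where 0.0215% of all genes passed higher and 0.151% lower, and 4 had an unadjusted p under 0.05, or 8.16% beside 8.57% of all genes. The difference was positive for 31 of the 49 genes, with a median of 0.21 beside 0.07 over all genes. Without the array that stood apart and with the block it was positive for 42 genes with a median of 0.17, and 0 passed, where 1.15% of all genes passed higher and 0.861% lower; 6 had an unadjusted p under 0.05, or 12.2% beside 14.2% of all genes. In that setting Nop58 was at 0.95 (limma adjusted p = 0.0742), Rrp1b at 0.79 (limma adjusted p = 0.142) and Polr1b at 0.32 (limma adjusted p = 0.541).

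For the genotype comparison without IgM, 41 of the 44 further probe sets had the same sign as the one used, and those of Bms1, Imp4 and Ncl held the exceptions. With IgM it was 28 of 44. Rrp1b was among the genes that disagreed, at -0.43 and -0.17 by its further sets, against 0.21 by the set used.

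A wider list of 122 other ribosome biogenesis factors had 117 genes tested. With IgM 48 of them rose in deleted cells and 47 in control cells, and 0 fell in either. Over all genes 9.78% rose and 9.21% fell in deleted cells, and 8.71% rose and 12% fell in control cells. The medians of the 117 genes were 0.76 in deleted and 0.82 in control cells. The largest rise in both genotypes was that of Dhx37, an RNA helicase of the processome, at 2.26 ± 0.45 in deleted cells (limma adjusted p = 0.00582) and 1.98 ± 0.45 in control cells (limma adjusted p = 0.01). Naf1, an assembly factor of box H/ACA snoRNPs, rose by 2.23 ± 0.35 in deleted cells and by 1.73 ± 0.35 in control cells. Between genotypes 0 of the 117 passed with IgM or without it by limma; 7 with IgM and 6 without it had an unadjusted p under 0.05, or 5.98% with IgM beside 13.7% of all genes and 5.13% without it beside 10.6%. The medians were -0.21 with IgM and -0.18 without it. With the block and without the array that stood apart, 34 of the 117 fell and 3 rose in deleted cells without IgM, where 10.0% of all genes fell and 11.6% rose. With the block and all arrays, 2 fell and 1 rose without IgM, where 2.38% of all genes fell and 4.51% rose.

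Of 78 genes for structural proteins of the cytosolic ribosome 42 were tested, and 0 passed in any of the 5 comparisons by limma. At most 1 had an unadjusted p under 0.05 in each, beside 3.82% to 32.5% of all genes. The median IgM difference of the 42 was -0.50 in deleted cells and -0.07 in control cells. With the block and without the array that stood apart it was -0.10 in deleted cells, with 1 gene rising and 1 falling. In that setting 24.3% of all genes rose with IgM in deleted cells and 2714 of 9293 fell. Deleted minus control medians of the 42 were -0.45 with IgM and 0.01 without it, and -0.02 with IgM in that setting.

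Markers of other cells were summed per array; without IgM the ranges of the genotypes overlapped for the NK, T, dendritic and plasma cell lists and did not for the others. Without IgM the summed linear signal of 7 neutrophil and granule genes was 3346 to 23007 in deleted cells and 324 to 2693 in control cells, and 0 of the 7 passed the test. That of the macrophage and monocyte list was 754 to 3070 in deleted cells and 220 to 560 in control cells, with Itgam and Fcgr1 at or under a log2 value of 4 on all 12 arrays. The NK cell list summed to 433 to 1784 in deleted cells and 126 to 1263 in control cells, the erythroid list to 123 to 851 in deleted and 64 to 105 in control cells, and the T cell list, with Cd4, Cd8a, Cd8b1 and Thy1 at or under 4 on all arrays, to 160 to 441 in deleted and 91 to 241 in control cells. The dendritic cell list summed to 227 to 389 in deleted and 239 to 300 in control cells, and the plasma cell list to 9587 to 14551 in deleted and 10126 to 13682 in control cells. The pan-B list summed to 67332 to 71107 in deleted cells and 71236 to 74833 in control cells. Of these lists Klrk1 and Csf1r rose and Adgre1 fell in deleted cells without IgM, and 0 pan-B genes passed. The part of other cells in the genotype difference of the ribosome biogenesis genes was not tested.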

How the data were processed

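RNA of 12 samples was measured on 1 array each, in 4 groups of 3, mapped through the labels. The authors deposited log2 values, for which the submitters' processing notes name GCRMA; its version was not given in the sources used here. GCRMA corrects background from probe sequence and normalizes arrays by quantiles, so a shift shared by all genes is removed, and low values are compressed (lowest value 2.23). Of 45101 probe sets, 34945 named 1 gene, 932 several and 9160 none, and 64 were controls. A probe set passed with a log2 value above 4 on at least 3 arrays, and of those for 1 gene the one with the highest mean over 12 arrays stood for it, which gave 9293 genes. Symbols were updated with a RefSeq gene table of GRCm38.p6, which also gave genomic spans; where a probe set lies in its gene was not used here.

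Differences were fitted with limma 3.58.1 in R 4.3.3, with 1 mean per group, 12 arrays, two-sided tests, Benjamini-Hochberg adjustment over 9293 genes and a threshold of 0.05. The fit was also run on simulated data, in which noise was independent between arrays and had 1 spread per gene on all arrays. The real same-numbered arrays correlated, as given below, and 1 array stood apart. The simulation therefore does not measure the error rates of the p-values given here. Arrays carry no read depth; precision is limited by their number. The 5 comparisons were IgM in each genotype, genotype with and without IgM, and the interaction. Comparisons that share a group of arrays are not independent.

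Replicate numbers 1 to 3 in the labels recur in every group. After group means were subtracted, same-numbered arrays correlated across genes at 0.174 to 0.847 over 12 pairs. For replicate 2 of deleted and control cells with IgM it was 0.174, and the deleted array reached 0.351 with a control array of another number. As all same-numbered values exceeded 0.1, the numbers are treated as pairing in an alternative fit with the block. The main fit and its p-values had no block. The block is named where it changes a call of a gene described by its values, or moves a count by over 1.5 times.

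The 50 genes and all lists were chosen with earlier results of these data known. Per-array values were given for 14 genes named at the outset, for genes past the threshold between genotypes, for the 8 largest rises with IgM, and for the 4 smallest p-values where a comparison called none. Other settings covered the block, filter, probe set, normalization, floor, variance model, array weights, arrays in the fit, threshold and left-out arrays.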

Additional observations from a re-analysis of the deposited data

Results flagged for a closer look

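Nop14, a protein of the small subunit processome, drew attention because the signs of its paired differences between genotypes were opposite with and without IgM. Deleted minus control was 0.10, 0.08 and 0.61 in pairs 1, 2 and 3 with IgM and -0.22, -0.0011 and -0.44 without it, so the values of pair 2 without IgM were nearly equal. Group differences of deleted minus control were 0.26 ± 0.53 with IgM and -0.22 ± 0.53 without it on the log2 scale (SE, n = 3 per group). The difference with IgM minus that without was 0.48 ± 0.76 and did not pass in the interaction test (limma adjusted p = 0.951). Without replicate 3 of deleted cells with IgM and with the replicate block it was 0.31 (limma adjusted p = 0.503).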

How the results depend on the processing

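With the replicate number as a block, 39 of the 49 genes rose with IgM in deleted cells and 43 in control cells, 4 fell in deleted cells without IgM, and no count between genotypes with IgM or in the interaction changed from 0. The number that fell in deleted cells without IgM was 1 as reported, 7 with array weights and 0 with no filter, with only the 6 arrays compared, or at a threshold of 0.01. The number that rose with IgM was 19 in deleted cells with only the 6 arrays compared and 18 in control cells at a threshold of 0.01. With the block and without replicate 3 of deleted cells with IgM, a setting chosen after the data were seen, 3 genes fell in deleted cells with IgM and 29 without it. Leaving out 1 array at a time gave 28 to 45 rises in deleted cells, 18 to 47 in control cells and 0 to 1 falls in deleted cells without IgM. The rises in control cells were 18 without its IgM replicate 2, 22 without its IgM replicate 3 and 19 without its replicate 1 without IgM. Leaving out all arrays of replicates 1, 2 and 3 in turn gave 15, 6 and 41 rises in deleted cells, 4, 1 and 38 in control cells, and 0 falls between genotypes. No direction of a called gene reversed under any setting. The median over the 49 genes stayed between 1.26 and 1.44 for IgM in deleted cells, 1.11 and 1.31 for IgM in control cells, -0.31 and -0.14 between genotypes with IgM, and -0.49 and -0.28 without it. Shares over all genes are given above only for settings with the block or without the array that stood apart. For the other settings a change in these genes cannot be told from a change over all genes. The causes of these changes were not tested. With 3 arrays a group, small differences may go undetected.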
